A study of Mus musculus with 24 samples.

Results

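The 10 genes described here encode proteins that hold maternal mRNAs in store, lengthen or bind their poly(A) tails, or start their decay, and they were chosen by name: Zar1, Zar1l, Ybx2, Cpeb1, Dazl, Btg4, Cnot7, Cnot6l, Pabpc1l and Eif4e1b. All 10 were found among the 16572 gene names of the deposited expression table, and all 10 passed the filter for the comparison, a mean of 1 RPM or more (RPM is the read number scaled to sequencing depth), which 14704 genes passed. During growth the mouse oocyte transcribes the mRNAs that will carry it through meiotic maturation and the first cleavage, and it keeps many of them untranslated with short poly(A) tails in ribonucleoprotein particles. At maturation, sequence-specific RNA-binding proteins recruit poly(A) polymerases to some of these mRNAs and switch on their translation, while the CCR4-NOT deadenylase, brought in by adaptor proteins, removes the tails of others and starts their clearance. Several of these regulators are themselves made almost only in germ cells.

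Ovaries of 7-day-old mice, labelled strain C57BL/6 Barb and described in the study's methods as C57 Black6 bred with SV129, were dissociated with enzymes and plated on gelatine. Follicles were not kept, and the plated cells included theca-like cells. Neither RNA-seq group carried a transgene or received a drug. IV 5% O2 oocytes were grown for 9 days with a medium change every 24 h, and IV 20% O2 oocytes for 14 days with a change every 48 h, so oxygen, days in culture, feeding, library preparation and any difference in oocyte size cannot be told apart. Class IV is the largest size class, labelled 60 to 70 µm in both conditions, but the study's text gives the 20% O2 oocytes a lower range of diameters than the 5% O2 oocytes. From pooled oocytes of each condition, RNA was freed of ribosomal RNA rather than selected by poly(A) tail, and it was sequenced as 2 stranded libraries per condition, which make up 4 of the 24 samples of the series. The bisulphite libraries and the in vivo oocytes were not analysed here.

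The table holds 1 value per gene and condition, treated here as pooled from the 2 libraries, which the sources used here do not state. No difference below therefore has an SD, a p-value or a replicate check, and the intervals given are exact 95% Clopper-Pearson intervals that cover counting error only and compare these libraries rather than the conditions. The columns correspond to 132185257 reads in 5% O2 and 40875370 reads in 20% O2, and a count of 0 allows up to 0.0227 and 0.0734 RPM, respectively. The 10 genes held between 17207 and 83539 reads each in 5% O2 and between 1416 and 23004 reads each in 20% O2, so their intervals on the log2 scale were narrow (0.05 to 0.16 wide). All 12 oocyte marker genes listed for this check were present, and their summed level was 9414 RPM in 5% O2 and 13460 RPM in 20% O2. The widest gaps in RPM were those of Zp2 (1537 and 3807 RPM) and Zp3 (690 and 1501 RPM). Of the 12, 3 were higher in 5% O2 and 9 lower, beside 9203 higher and 5501 lower of all genes tested. Of 18 theca and stroma markers, 10 were in the table and summed to 45.3 RPM in 5% O2 and 5.48 RPM in 20% O2, where Dcn, Vim and Col1a2 had 0 reads. The steroidogenic gene Cyp11a1 had 16.4 RPM in 5% O2 and 0.122 RPM in 20% O2. This was the widest log2 difference of the 7 genes of that list tested, all of which were higher in 5% O2. Of 12 granulosa markers, 7 were in the table and summed to 42.9 and 29.8 RPM, with Fshr at 0 reads in 5% O2 and Inha at 0 reads in 20% O2. The part of these cells in the differences below was not tested. In such bulk samples, fewer cells of a type and less RNA per cell cannot be told apart.

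The 10 regulators did not move as a block between the cultures. Ybx2, Btg4, Cnot7 and Pabpc1l were at least 2-fold higher in 5% O2, Cpeb1 was at least 2-fold lower, and Zar1, Zar1l, Dazl, Cnot6l and Eif4e1b differed by less than 2-fold. The regulators were chosen with earlier results of these data known, so their counts are a description and not a test. The count of 4 higher genes of 10 stood beside 18.7% of all genes tested that were at least 2-fold higher in 5% O2 (2753 genes), and the count of 1 lower gene stood beside 9.22% that were at least 2-fold lower (1356 genes). Of these called genes, 67.0% were higher in 5% O2, a share that became 45.6% once the columns were scaled by their median ratio and 48.6% once they were quantile-normalized. Differences are given on log2(RPM + 1) as 5% O2 minus 20% O2. The counting interval and the exact fold printed for a regulator are those of the RPM ratio without the added 1. The median difference of all genes tested was 0.26 (quartiles -0.31 and 0.82), and that of the 10 regulators was 0.48, with 6 of them above the median gene and 4 below. The median gene moved to -0.04 under median-ratio scaling and to 0.06 under quantile normalization. The summed level of the 10 regulators was 2896 RPM in 5% O2 and 2409 RPM in 20% O2, a ratio of 1.20, so the sum differed less than most of its parts.

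**Figure D1:**
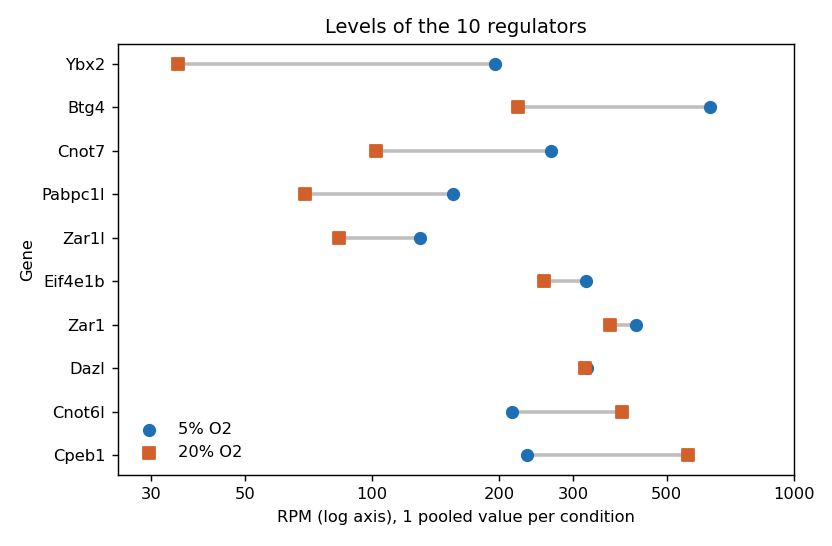
Levels of the 10 regulators in RPM (horizontal log axis), with 1 pooled value per condition (circles 5% O2, squares 20% O2) joined by a line and genes ordered by their difference. Ybx2, at 34.6 RPM in 20% O2 and 195 RPM in 5% O2, has the longest line, the symbols of Dazl nearly coincide, and only Cnot6l and Cpeb1 have the square to the right.

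Among the storage proteins, the most marked difference was that of Ybx2, while Zar1 and Zar1l differed little. ZAR1 and ZAR1L are related zinc finger proteins of the oocyte that bind and protect maternal mRNAs. Zar1 (ENSMUSG00000063935; GRCm38 chromosome 5, 72576806 to 72581254, minus strand) had 423 RPM in 5% O2 from 55945 reads and 367 RPM in 20% O2 from 15020 reads. The log2 difference of Zar1 was 0.20 (counting interval 0.18 to 0.23), which is -0.05 after subtraction of the median gene, and it turned negative under median-ratio scaling (-0.12) and quantile normalization (-0.0054). Zar1 thus lay at the middle of all genes. Part of the sequence is shared, as 16.5% of the 100-base windows of its exons, and 13.0% of those of its principal transcript, occur at least 2 times in the genome, and how reads there were counted is not given in the sources used here. Zar1l (ENSMUSG00000056586; chromosome 5, 150507055 to 150518164, minus strand) had 130 RPM in 5% O2 (17207 reads) and 83.6 RPM in 20% O2 (3418 reads). The log2 difference of Zar1l was 0.63 (0.59 to 0.69), or 0.37 above the median gene, and it was positive (0.32 to 0.64) with each pseudocount and scaling tried. Both genes were thus higher in 5% O2 as deposited, but the direction of Zar1 depended on the scaling.

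Ybx2 encodes a germ cell Y-box protein (also called MSY2) that coats and stabilises stored mRNAs. Ybx2 (ENSMUSG00000018554; chromosome 11, 69935796 to 69941605, plus strand) had 195 RPM in 5% O2 (25825 reads) and 34.6 RPM in 20% O2 (1416 reads). It was 5.64-fold higher in 5% O2, with a log2 difference of 2.46 (2.42 to 2.57) or 2.20 above the median gene, and 0.741% of all genes tested had a difference as high. The lowest value of Ybx2, under median-ratio scaling, was 2.15. Of the 100-base windows of its exons, 8.57% are repeated in the genome. This was the widest difference of the 10 genes and the only one beyond 4-fold.

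Among the proteins that act on the poly(A) tail and the cap, Cpeb1 was lower in 5% O2, Pabpc1l was higher, and Dazl and Eif4e1b were close to the middle of all genes. CPEB1 binds the cytoplasmic polyadenylation element (CPE) in 3′ UTRs, first to keep an mRNA silent and, once phosphorylated, to have its tail lengthened. Cpeb1 (ENSMUSG00000025586; chromosome 7, 81347026 to 81455465, minus strand) had 233 RPM in 5% O2 (30786 reads) and 563 RPM in 20% O2 (23004 reads). The log2 difference of Cpeb1 was -1.27 (-1.30 to -1.25), or -1.53 against the median gene, and 6.28% of genes were as low. Cpeb1 was the only one of the 10 at least 2-fold lower in 5% O2 as deposited. Its difference ranged from -1.59 to -1.25 over the pseudocounts and scalings, so it was at least 2-fold in each.

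DAZL, a germ cell RNA-binding protein, promotes translation of its targets during maturation, and CPEB1 and DAZL act together on some of them. Dazl (ENSMUSG00000010592; chromosome 17, 50279395 to 50293636, minus strand) had 324 RPM in 5% O2 (42818 reads) and 320 RPM in 20% O2 (13075 reads). This was the smallest difference of the 10, at 0.02 (-0.01 to 0.05), an interval that included no difference. Against the median gene Dazl was at -0.24, and the sign turned under both median-ratio scaling (-0.30) and quantile normalization (-0.21). The direction of Dazl therefore depends on how the columns are scaled.

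Pabpc1l encodes the embryonic poly(A)-binding protein (ePAB) of oocytes and early embryos. Pabpc1l (ENSMUSG00000054582; chromosome 2, 164025450 to 164050538, plus strand) had 156 RPM in 5% O2 (20568 reads) and 69.6 RPM in 20% O2 (2843 reads). It was 2.24-fold higher in 5% O2, with a log2 difference of 1.15 (1.11 to 1.22) or 0.89 above the median gene, and 14.5% of genes were as high. Pabpc1l was under 2-fold after either scaling (0.83 by median ratio, 0.94 by quantiles). EIF4E1B is an oocyte relative of the cap-binding protein eIF4E. Eif4e1b (ENSMUSG00000074895; chromosome 13, 54783998 to 54788459, plus strand) had 322 RPM in 5% O2 (42547 reads) and 256 RPM in 20% O2 (10481 reads). The log2 difference of Eif4e1b was 0.33 (0.30 to 0.36), or 0.07 above the median gene, and came down to 0.0083 under median-ratio scaling. Of its 100-base windows 2.33% are repeated in the genome, whereas none are in Zar1l, Cpeb1, Dazl, Btg4, Cnot7, Cnot6l or Pabpc1l.

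The genes that start deadenylation were split. BTG4 links the CCR4-NOT complex to translating mRNAs and is needed for the clearance of maternal mRNA at maturation. Btg4 (ENSMUSG00000032056; chromosome 9, 51060901 to 51119875, plus strand) had 632 RPM in 5% O2 (83539 reads) and 222 RPM in 20% O2 (9056 reads). The log2 difference of Btg4 was 1.51 (1.48 to 1.54), a 2.85-fold difference, or 1.25 above the median gene, and 7.52% of genes were as high. It stayed at 1.19 or more with each pseudocount and scaling.

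CNOT7 and CNOT6L are catalytic subunits of CCR4-NOT from the 2 deadenylase families, CAF1 and CCR4, and they differed in opposite directions. Cnot7 (ENSMUSG00000031601; chromosome 8, 40492540 to 40515847, minus strand) had 266 RPM in 5% O2 (35153 reads) and 102 RPM in 20% O2 (4184 reads). It was 2.60-fold higher in 5% O2, with a log2 difference of 1.37 (1.33 to 1.42) or 1.11 above the median gene, and it stayed at 1.05 or more with each pseudocount and scaling. Cnot7 shares 247 exonic bases with Zdhhc2 on the opposite strand. The libraries were stranded, but whether strand was used in counting is not given in the sources used here, and Zdhhc2 itself had 3360 reads in 5% O2 (25.4 RPM) and 200 reads in 20% O2 (4.89 RPM). Cnot6l (ENSMUSG00000034724; chromosome 5, 96070333 to 96164171, minus strand) had 215 RPM in 5% O2 (28458 reads) and 391 RPM in 20% O2 (15984 reads). It was 1.82-fold higher in 20% O2, with a log2 difference of -0.86 (-0.89 to -0.83) or -1.12 against the median gene, and 11.2% of genes were as low. Cnot6l was at least 2-fold lower after either scaling (-1.18 by median ratio, -1.07 by quantiles).

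**Figure D2:**
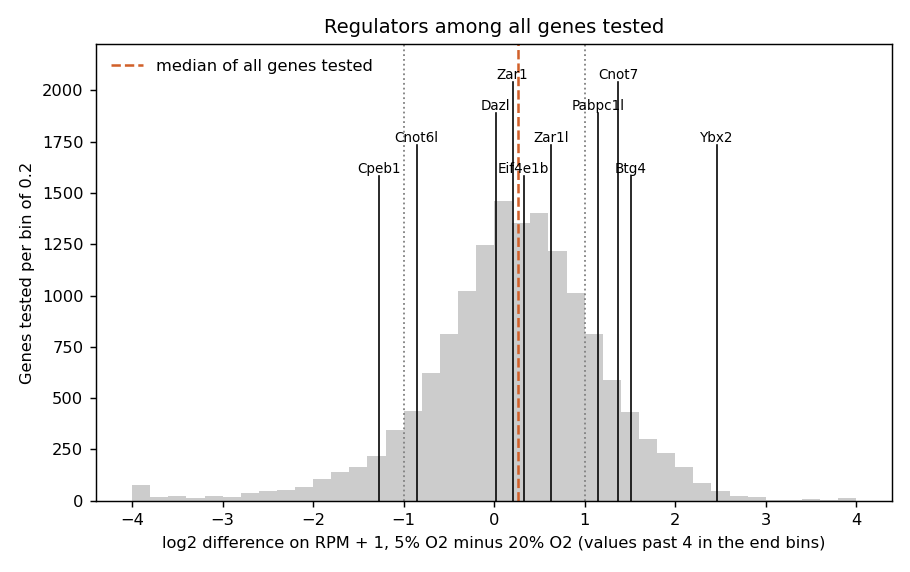
Number of genes per bin of 0.2 (vertical axis) against the log2 difference of RPM + 1, 5% O2 minus 20% O2 (horizontal axis, values past 4 gathered in the end bins), for the 14704 genes tested. Named lines mark the 10 regulators, dotted lines 2-fold, and the dashed line the median gene at 0.26. Ybx2 stands in the right tail at 2.46 and Cpeb1 on the left at -1.27, while Zar1, Eif4e1b and Dazl stand near the peak.

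Levels of different genes were compared after division by the exonic length annotated in GENCODE (RPM per kb of all exons). The study's methods name an oocyte annotation for counting, so the exons that were counted may differ in length from these. The 10 regulators were all well expressed. The least of them ranked in the top 16.4% of genes in 5% O2 and in the top 16.8% in 20% O2. In 5% O2 the order per kb was led by Btg4 at 247, followed by Zar1l (145), Eif4e1b (143), Zar1 (122), Ybx2 (104), Dazl (84.8), Pabpc1l (57.1), Cpeb1 (55.6), Cnot7 (45.7) and Cnot6l (20.9). Only the neighbours Zar1l and Eif4e1b had overlapping counting intervals in this order. In 20% O2 the order per kb was led by Cpeb1 at 134, followed by Eif4e1b (114), Zar1 (106), Zar1l (93.4), Btg4 (86.7), Dazl (83.7), Cnot6l (37.9), Pabpc1l (25.5), Ybx2 (18.4) and Cnot7 (17.6). Here the intervals overlapped between Btg4 and Dazl and between Ybx2 and Cnot7. By this length Btg4 was in the first place in 5% O2 and in the fifth in 20% O2, and Cpeb1 in the eighth and the first. The highest level was 11.8-fold above the lowest in 5% O2 and 7.63-fold in 20% O2. Division by the length of the principal transcript, added after the data were seen, put Btg4 (425 per kb) before Zar1 (296) in 5% O2 and Zar1 (257) before Cpeb1 (181) and Btg4 (149) in 20% O2, with Zar1l (93.4) in the sixth place. Places in the order thus depend on the length used. For Zar1, the annotated exons (3465 bases) include a transcript with a retained intron and its principal transcript has 1429 bases.

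Ratios of a regulator to a related or partner gene within a culture do not change when a column is multiplied by a factor, so they give the balance of mRNAs independently of such scaling. The ratio of Cnot7 to Cnot6l per kb was 2.19 in 5% O2 and 0.464 in 20% O2, a 4.72-fold difference (log2 2.24, approximate 95% counting interval 2.18 to 2.29). The more abundant of these subunit mRNAs per kb was thus Cnot7 in 5% O2 and Cnot6l in 20% O2, also per kb of principal transcripts (3.55 and 0.752). Against their own paralogues, Cnot7 had 0.814 of the level of Cnot8 in 5% O2 and 0.543 in 20% O2, and Cnot6l was 3.68 times Cnot6 in 5% O2 and 6.14 times in 20% O2 (1.67 and 2.80 with principal transcripts). Btg4 was 19.0 times as high as Cnot1, the scaffold of the complex, in 5% O2 and 2.62 times in 20% O2, which made a 7.25-fold difference and the widest of the 15 ratios computed. 

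Pabpc1l was 13.7 times as high per kb as Pabpc1, the somatic poly(A)-binding protein gene, in 5% O2 and 3.02 times in 20% O2, or 6.82 and 1.503 times with principal transcripts. Against Pabpc4 the ratio of Pabpc1l was 2.39 and 0.787, so Pabpc1l was above Pabpc4 in 5% O2 and below it in 20% O2. For the cap-binding pair the balance hardly differed, as Eif4e1b was 4.13 times Eif4e in 5% O2 and 3.87 times in 20% O2 (log2 0.09, 0.05 to 0.14). Ybx2 was 1.36 times the broadly expressed Ybx1 in 5% O2 and 0.652 of it in 20% O2, and against Ybx3 its ratio was 1.30 and 0.430. The order in these Y-box pairs depended on the length used, since per kb of principal transcripts Ybx2 was below Ybx1 (0.986 and 0.473 of it) and below Ybx3 (0.881 and 0.292) in both cultures. Zar1 was 0.840 of Zar1l in 5% O2 and 1.14 times it in 20% O2, but with principal transcripts Zar1 was above Zar1l in both cultures. Cpeb1 was 0.655 of Dazl in 5% O2 and 1.60 times it in 20% O2, and it stayed above Cpeb4 at 4.04 and 9.87 times (1.98 and 4.83 with principal transcripts). The length used sets the size of such a ratio but not its fold difference between the cultures.

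**Figure D3:**
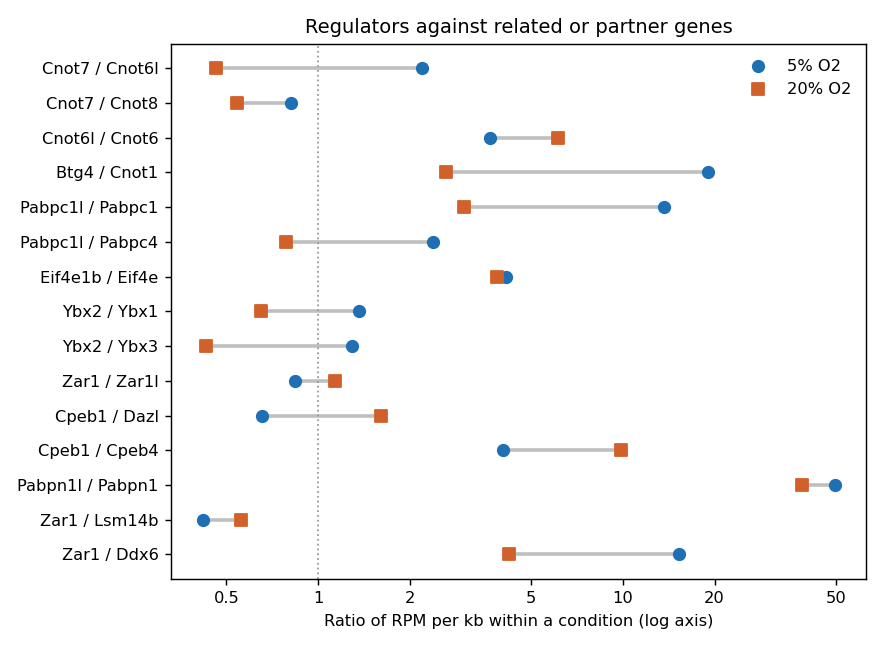
Ratios of RPM per kb between a regulator and a related or partner gene (vertical axis) within each culture (horizontal log axis, circles 5% O2, squares 20% O2), with the dotted line at 1. The ratios of Cnot7 to Cnot6l, Pabpc1l to Pabpc4, Ybx2 to Ybx1 and to Ybx3, Zar1 to Zar1l and Cpeb1 to Dazl cross the line, and that of Eif4e1b to Eif4e barely moves. With principal-transcript lengths, those of Ybx2 to Ybx1 and to Ybx3 and of Zar1 to Zar1l do not cross it and that of Zar1 to Lsm14b does.

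The other genes of the pathway were taken from 6 lists, of which 97 of 100 genes were tested. Of these, 13 were at least 2-fold higher in 5% O2 (13.4% beside 18.7% of all genes) and 5 at least 2-fold lower (5.15% beside 9.22%), with a median of 0.20 beside 0.26. With a pseudocount of 5 RPM, however, 10.3% were higher, above the 8.17% of all genes, and 3.09% lower, below the 4.80% of all genes. As deposited, with a pseudocount of 1 RPM, each list but that of CPEB1 or DAZL targets was below all genes in both shares. The shares of these lists were 5.56% to 15.0% at least 2-fold higher and 5.00% to 7.14% at least 2-fold lower. With 5 RPM, the storage list had 10.5% higher and 5.26% lower, above 8.17% and 4.80% of all genes. The cap and poly(A) and CCR4-NOT lists had 5.56% lower, also above 4.80%. With 0.1 RPM, the cap and poly(A) list had 11.11% lower, beside 11.05% of all genes. Without the filter, the storage list had 10.0% lower, beside 9.25%. Under median-ratio scaling, however, 22.2% of the cap and poly(A) list and 15.0% of the decay list were lower, above the 13.88% of all genes. The balance depended on the scaling, as median-ratio scaling gave 9 higher and 10 lower (median -0.12) and quantile normalization 10 higher and 7 lower (median -0.02). Of all genes, 11.62% were higher and 13.88% lower after the first of these scalings, and 11.996% and 12.690% after the second. Of 19 storage and ribonucleoprotein partners tested, 2 were higher and 1 lower (median 0.40). Ybx1 had 193 RPM in 5% O2 and 71.3 RPM in 20% O2, and Fxr2, of the FMRP family, had 300 and 80.8 RPM. Ddx6, the helicase gene that marks stored ribonucleoprotein particles and P-bodies, was the lower one with 64.0 RPM in 5% O2 and 201 RPM in 20% O2 (log2 -1.63). Lsm14b, which encodes a partner of ZAR1 and DDX6 in oocytes, had the highest RPM of the list at 844 and 548 RPM, and Eif4enif1 (4E-T) had 442 and 365 RPM.

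Of 14 genes of cytoplasmic polyadenylation tested, 1 was higher and 1 lower (7.14% each), beside 18.7% and 9.22% of all genes. The median was 0.31, or -0.0087 under median-ratio scaling. With a pseudocount of 5 RPM 0 were lower, beside 4.80% of all genes at that setting. Fip1l1, of the cleavage and polyadenylation factor, had 349 RPM in 5% O2 and 136 RPM in 20% O2. Cpeb3 was lower in 5% O2 like Cpeb1, with 32.4 and 68.7 RPM (log2 -1.06), whereas Cpeb2 (-0.59) and Cpeb4 (0.02) were under 2-fold. Tent4a, for a noncanonical poly(A) polymerase, had 237 RPM in 5% O2 and 298 RPM in 20% O2. Of 18 cap- and poly(A)-binding factors, 2 were higher (11.1%) and 1 lower (5.56%), beside 18.7% and 9.22% of all genes. The median of 0.06 turned negative under both scalings (-0.25 by median ratio and -0.067 by quantiles). By median ratio 1 was higher and 4 lower, beside 11.62% and 13.88% of all genes. By quantiles 2 were higher and 2 lower, beside 11.996% and 12.690%. The oocyte paralogue Pabpn1l (429 and 138 RPM) and Pabpn1 (22.01 and 9.05 RPM), which bind poly(A) tails, were both higher in 5% O2. Eif4ebp2, for a repressor of eIF4E, was lower with 17.0 RPM in 5% O2 and 47.1 RPM in 20% O2, and Pabpc1 (27.3 and 55.4 RPM) was at -0.99 and passed 2-fold with a pseudocount of 0.1 RPM, where 2 genes of the list were lower. The genes of highest RPM in this list, Eif4g2 (576 and 587 RPM) and Paip2b (488 and 473 RPM), were nearly level.

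Of 18 other CCR4-NOT subunits, adaptors and deadenylases, 1 was higher and 1 lower (5.56% each, median -0.06), beside 18.7% and 9.22% of all genes. After either scaling 0 were higher (medians -0.37 and -0.24), beside 11.62% of all genes by median ratio and 11.996% by quantiles. Cnot1 had 223 RPM in 5% O2 and 567 RPM in 20% O2 (log2 -1.34), and Cnot10 had 126 and 56.3 RPM (1.15). The scaffold gene Cnot1 was lower in 5% O2 like Cnot6l, and the call of Cnot10 was the one lost after scaling. Noct, for a related exonuclease, had the second highest mean of the list, with 166 RPM in 5% O2 and 260 RPM in 20% O2. None of the other BTG and TOB adaptor genes listed (Btg1, Btg2, Btg3, Tob1 and Tob2) reached 2-fold. Of 20 decay triggers and effectors, 3 were higher (15.0%) and 1 lower (5.00%), beside 18.7% and 9.22% of all genes (median of the list 0.29). The counts became 2 higher and 3 lower under median-ratio scaling (median -0.013), 2 and 2 under quantile normalization, and 1 and 0 with a pseudocount of 5 RPM, where 8.17% of all genes were higher and 4.80% lower. Tut7, a terminal uridylyltransferase gene, had 78.3 RPM in 5% O2 and 25.7 RPM in 20% O2, Zfp36 had 5.42 and 1.15 RPM, and the decapping gene Dcp1b had 8.29 and 3.33 RPM. The lower one was Ythdf1, for a reader of methylated adenosine, with 45.2 RPM in 5% O2 and 92.1 RPM in 20% O2, and its relative Ythdf2 (119 and 212 RPM, log2 -0.83) was under 2-fold. The decay genes of highest RPM, Dcp1a (557 and 465 RPM) and Edc4 (406 and 335 RPM), differed little.

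Of 8 mRNAs known as targets of CPEB1 or DAZL, 4 were at least 2-fold higher in 5% O2, beside 18.7% of all genes, and none lower (median 0.95). After either scaling 3 were higher (medians 0.63 and 0.71). Sycp3 had 123 RPM in 5% O2 and 22.3 RPM in 20% O2, Sycp1 had 32.5 and 9.35 RPM, Plat had 2173 and 742 RPM, and Tex19.1 had 372 and 167 RPM. Sycp1 and Sycp3 encode proteins of the synaptonemal complex of meiotic prophase, Plat encodes tissue plasminogen activator, and Tex19.1 a germ cell protein. The other 4 were under 2-fold. Tpx2 had 320 RPM in 5% O2 and 189 RPM in 20% O2 (log2 0.75), Mos differed by -0.10 and Ccnb1 by -0.02, and Gdf9, with Plat the highest in RPM, had 2346 and 2805 RPM (log2 -0.26). The members of this list were too few, and chosen with these data known, to set them apart from other genes.

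**Figure D4:**
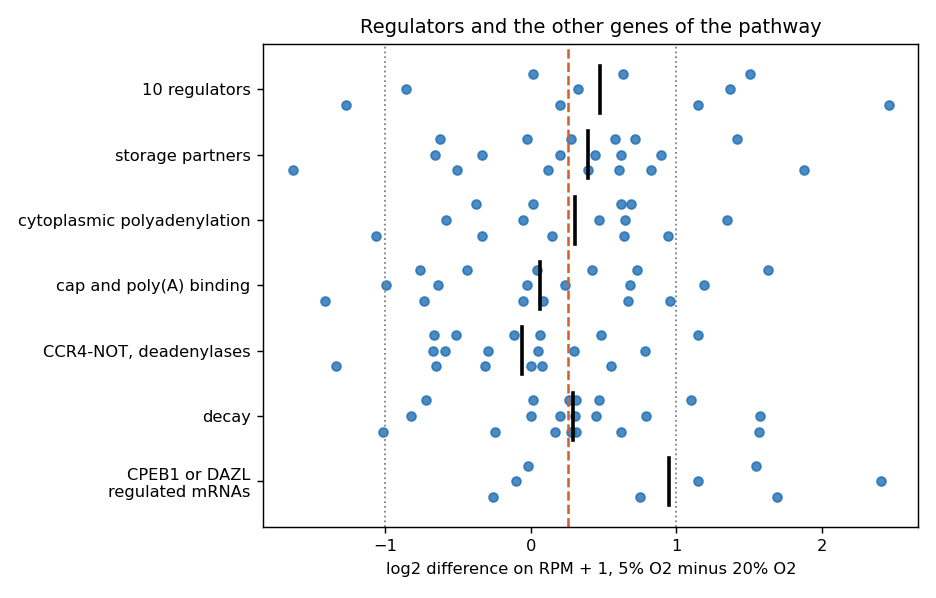
Log2 difference of RPM + 1, 5% O2 minus 20% O2 (horizontal axis), of each tested gene (points, spread vertically for legibility only) in the 10 regulators and the 6 lists, with black bars for list medians, dotted lines at 2-fold and the dashed line at the median gene (0.26). In the lists other than the CPEB1 or DAZL targets most points lie between the dotted lines, and 4 of the 8 targets lie to the right of them.

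Regulators of this pathway can be its own targets, so the 3′ ends of their mRNAs were searched for the letters that CPEB1 and DAZL bind. The last 100 bases of the annotated 3′ UTR of each principal transcript were read on the transcript strand. They were searched for the CPE letters TTTTAT or TTTTAAT, the DAZL letters TTTGTTT and the polyadenylation signals AATAAA or ATTAAA. The 3′ UTR of Zar1l has 14 annotated bases and was too short. CPE letters were found in 3 of the 9 others (Btg4, Cnot7 and Ybx2), beside 19.7% of 11873 genes tested with an annotated 3′ UTR of this length, DAZL letters in 0 of 9 beside 6.09%, and a polyadenylation signal in 7 of 9 beside 81.3%. The CPE letters of these genes, all 3 of which were at least 2-fold higher in 5% O2, are shown in capitals with their neighbours in GRCm38.
Btg4, chr9:51119797-51119826 (+ strand): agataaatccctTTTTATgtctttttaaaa
Cnot7, chr8:40493038-40493067 (minus strand): tcttaaggtacaTTTTATatcaataaaaat
Ybx2, chr11:69941532-69941561 (+ strand): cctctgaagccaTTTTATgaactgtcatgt

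In each of these sites the letters were TTTTAT. They begin 67 bases before the annotated end in Btg4, 62 in Ybx2 and 20 in Cnot7, where the signal AATAAA follows within the same stretch. The windows of Btg4-201 and Ybx2-201 hold no such signal. The match depends on the transcript in Cnot7, where the 3 other annotated coding transcripts end further downstream and hold the DAZL letters in place of the CPE, and in Btg4, where 2 of 3 transcripts hold the CPE letters. All 3 coding transcripts of Ybx2 hold them, and 2 of these also hold the DAZL letters. Over all genes the share that was higher was about the same with and without the letters, since 18.4% of the 2341 genes with CPE letters and 18.1% of the 9532 genes without were at least 2-fold higher in 5% O2, with medians of 0.31 and 0.26. At least 2-fold lower were 6.54% of the genes with the letters and 8.06% of those without. The match is a description of letters and not of a bound site.

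For contrast, the 3′ end of Zar1 holds a polyadenylation signal, in capitals here, without CPE letters in the last 100 bases. It stands for the 6 searched regulators of this kind.
Zar1, chr5:72577117-72577146 (minus strand): ataaagcctgtgAATAAAaggtattgcaaa

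The promoters of the regulators differed widely in CG dinucleotides, the sites that DNA methylation acts on. In the RefSeq promoters used here (GRCm38.p6), 8 of the 10 genes were matched to a promoter of 300 bases around the annotated start, 11 promoters in all. Promoters of Cnot7 and Eif4e1b were not analysed here. The Btg4 promoter lies inside the gene span given above, so its RefSeq start is further downstream than the first base of the GENCODE gene. Over 32851 promoters the median number of CG was 7. Ybx2 (40 and 32 in its promoters), Cpeb1 (33), Dazl (28) and Cnot6l (31 to 49) were rich in CG, Zar1 had 17, and Pabpc1l (7), Zar1l (3) and Btg4 (1) were at the median or below. The genes lower in 5% O2, Cpeb1 and Cnot6l, were among the CG-rich ones, as was Ybx2, the gene with the widest difference in the other direction, while Pabpc1l, Zar1l and Btg4 were higher in 5% O2. With 8 genes, no relation was tested. The promoters of Ybx2, Cpeb1 and Btg4 are shown with CG in capitals.
Ybx2, chr11:69935649-69935948 (+ strand): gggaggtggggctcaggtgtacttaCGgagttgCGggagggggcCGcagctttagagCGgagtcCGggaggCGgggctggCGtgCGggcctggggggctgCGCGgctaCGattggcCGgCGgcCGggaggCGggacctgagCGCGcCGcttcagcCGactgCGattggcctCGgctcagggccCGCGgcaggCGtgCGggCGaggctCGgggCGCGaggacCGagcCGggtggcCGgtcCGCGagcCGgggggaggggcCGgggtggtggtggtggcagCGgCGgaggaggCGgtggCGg
Cpeb1, chr7:81454709-81455008 (minus strand): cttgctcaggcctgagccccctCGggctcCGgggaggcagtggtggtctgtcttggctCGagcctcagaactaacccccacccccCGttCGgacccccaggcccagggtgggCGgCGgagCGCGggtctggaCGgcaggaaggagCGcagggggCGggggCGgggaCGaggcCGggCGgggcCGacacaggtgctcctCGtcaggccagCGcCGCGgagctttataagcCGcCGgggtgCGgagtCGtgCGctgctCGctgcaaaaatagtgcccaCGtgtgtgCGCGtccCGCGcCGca
Btg4, chr9:51115751-51116050 (+ strand): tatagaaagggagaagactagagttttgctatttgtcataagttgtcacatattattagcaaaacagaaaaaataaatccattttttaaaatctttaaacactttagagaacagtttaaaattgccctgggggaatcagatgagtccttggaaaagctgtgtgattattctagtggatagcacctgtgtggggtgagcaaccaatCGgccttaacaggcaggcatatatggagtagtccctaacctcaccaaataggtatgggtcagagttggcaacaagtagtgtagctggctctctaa

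NOBOX is an oocyte homeobox factor, and its letters TAATTA, or alternatively TAATTG, were searched on both strands. They were found 2 times in the promoter of Zar1l and in no other of the 11, beside 12.4% of all promoters that hold them. E-box letters (CANNTG, which FIGLA and SOHLH proteins can bind) were found in 9 of the 11, beside 72.3% of all promoters.

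Ybx2, Btg4, Cnot7 and Cpeb1 were at least 2-fold apart with each pseudocount and scaling, Pabpc1l was so only without scaling and Cnot6l only with it. The filters and the sum over rows of a name cannot change the value of a single regulator. Both scalings moved all 10 genes toward 20% O2.

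**Figure D5:**
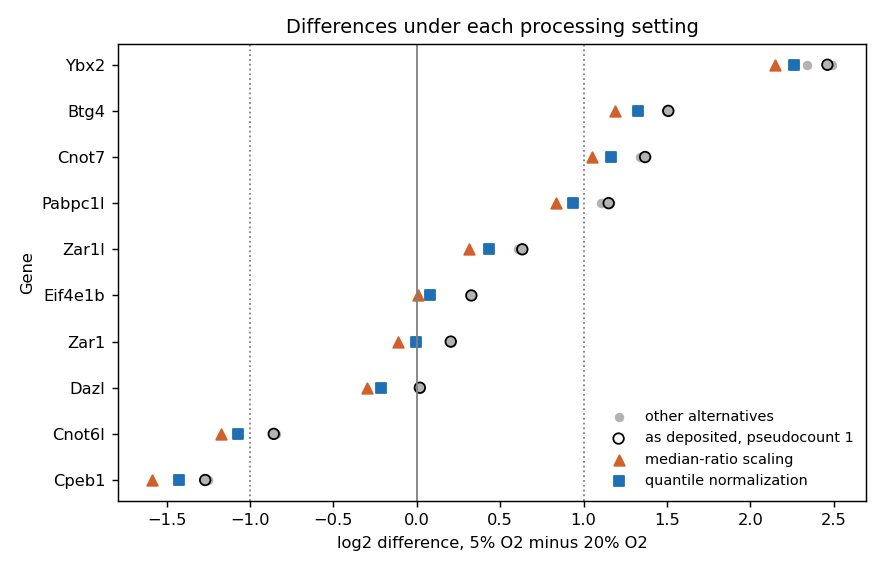
Log2 difference, 5% O2 minus 20% O2 (horizontal axis), of each regulator (vertical axis) as deposited with a pseudocount of 1 RPM (open circles), after median-ratio scaling (triangles), after quantile normalization (squares) and under the other alternatives (grey). Triangles and squares lie to the left of the circles for each gene, Zar1 and Dazl cross 0, and Ybx2 stays beyond 2.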

How the data were processed

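RNA-seq was analysed for class IV oocytes grown in 5% O2 and 20% O2, with 2 libraries per condition. Reads were aligned by the authors with TopHat to mm10 (Trim Galore 0.2.8 and 0.3.5, TopHat2 2.0.9 and Bismark 0.14.0 per the labels, the last for bisulphite data), merged reads over exons of an oocyte annotation in SeqMonk, and for each gene deposited 1 log2 value a condition. The way in which libraries were combined is not given in the sources used here. The deposited log2 values are named RPKM, but their linear values were whole multiples of 1 step (tolerance 0.05) for 99.94% of the 5% O2 column and 99.99% of the 20% O2 column, so they were read as log2 RPM with no correction for length. Genes without reads, listed at 0.9 of a read, were set to 0. The 1 value column that belongs to no sample of the series was not used.

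Samples were grouped by their labels. For 18 names with more than 1 of the 16591 rows, the row with the highest mean was kept. Differences of log2(RPM + 1) were taken for genes averaging 1 RPM or more, and called at 2-fold. The planned limma fits were not run, since they need libraries apart. Depth gave counting intervals (95%, Clopper-Pearson) and a floor of 3 reads. Exons, 3′ UTRs and repeated windows came from GENCODE M21 and the GRCm38 genome, in which 16198 names were matched, 16041 of them with identical coordinates, and promoters from RefSeq. The principal transcript was the coding one with the best APPRIS annotation, then the longest. Ratios between genes have approximate (Wald) intervals. Alternatives were pseudocounts of 0.1 and 5 RPM, no filter on low values, a filter at a mean of 5 RPM, quantile normalization, median-ratio scaling, sums over rows of a name and no division by length. The steps were tested on simulated data. The genes to be named were all 10 regulators and, of each list, the genes at least 2-fold apart and the 2 with the highest mean. Cpeb2, Cpeb4, Pabpc1, Ythdf2, Mos, Ccnb1, Tpx2, the BTG and TOB genes, Zdhhc2, Zp2, Zp3, Cyp11a1, markers at 0 and the genes used in ratios were named beside them after their values were seen. The regulators and lists were chosen with earlier results of these data known. Protein sequences were not used here. Python 3.11.15, numpy 2.4.6, pandas 2.3.3, numba 0.67.0, scipy 1.17.1 and matplotlib 3.10.9 were used.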

Additional observations from a re-analysis of the deposited data

How the results depend on the processing

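Pooled columns limit these results: there is no spread between libraries, and the depth of 20% O2 is the lower one by a factor of 3.23. No paired analysis was possible because each condition has 1 column, and for the same reason no replicate could be left out. The counts of regulators at least 2-fold higher in 5% O2 were 4 as deposited and 3 with either scaling (median ratio or quantile), where Pabpc1l was 0.83 and 0.94. The regulators at least 2-fold lower were 1 as deposited and 2 with either scaling, where Cnot6l joined Cpeb1. With median-ratio scaling the direction reversed for Zar1 (-0.12), Dazl (-0.30) and the medians of cytoplasmic polyadenylation (-0.0087), cap and poly(A) binding (-0.25) and decay genes (-0.013). With quantile normalization it reversed for Zar1 (-0.0054), Dazl (-0.21) and the median of cap and poly(A) binding (-0.067). Both scalings shift all genes by their construction. The ratio of the highest to the lowest regulator, 11.8 in 5% O2 and 7.63 in 20% O2 per kb of exons, was 4.85 and 16.2 without division by length, and 16.9 and 12.4 per kb of the principal transcript. Of the 137 values under alternatives, the other single-gene differences moved in 17 and were the same in 49. The 49 include each regulator under both filter settings and the sum over rows, which cannot change its value. Over all genes, 2753 were at least 2-fold higher and 1356 lower as deposited, 1202 and 706 with a pseudocount of 5 RPM, 1700 and 2031 after median-ratio scaling, 1764 and 1866 after quantile normalization, and 1691 and 917 at a mean of at least 5 RPM.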
